A study of Arabidopsis thaliana with 4 samples.

Results

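The 10 genes described here encode transcription factors that plants switch on within a short time of stress. They were taken by gene ID from a named list, drawn up with earlier results of these data known although its rule uses no measured value, and are 10 of the 32548 genes in the deposited table: CBF1 (AT4G25490), CBF2 (AT4G25470), CBF3 (AT4G25480), ERF5 (AT5G47230), ERF6 (AT4G17490), ERF13 (AT2G44840), ERF104 (AT5G61600), ERF105 (AT5G51190), ZAT10 (AT1G27730) and ZAT12 (AT5G59820). Transcript levels came from RNA sequencing of whole Arabidopsis thaliana seedlings. The mutant group carried bdt1-/- in the Col-0 ecotype and the control group was wild-type Col-0. Each genotype had 2 libraries, called biological replicates by the submitters, and replicate numbers were not read as pairing them. All seedlings were 10 days old and had been grown on Murashige and Skoog plates at 22 °C under days of 16 h light and 8 h dark. The source field of the mutant samples says btl1 and their titles and genotype say bdt1, and the 2 names were read as 1 mutant. Neither the nature of the bdt1 allele nor the number of plants or lines behind a library is given in the sources used here. The comparison asks how transcript levels in bdt1 differ from those in Col-0.

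CBF1, CBF2 and CBF3 (C-repeat binding factors, of the DREB1 group) are activators of the AP2/ERF family that bind the C-repeat or dehydration-responsive element (CRT/DRE) in cold-regulated promoters, and their own transcripts rise soon after cold begins. The ERF members belong to a branch of the same family that binds the GCC box and answers to ethylene, wounding and microbial elicitors, in part through the mitogen-activated protein kinases MPK3 and MPK6. ZAT10 and ZAT12 are C2H2 zinc finger proteins with an EAR repressor motif that respond to high light, salt, cold and reactive oxygen, and transcripts of all these families also move quickly with touch, light and time of day.

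Recovered totals were 22914893 and 25120921 reads in bdt1 replicates 1 and 2, and 23529796 and 27435729 reads in Col-0 replicates 1 and 2. In a principal component analysis, bdt1 and Col-0 lay on opposite sides of component 1, which held 49.2% of the variance. Component 2 (27.4%) set Col-0 replicate 1 (score 42.5) apart from Col-0 replicate 2 (-38.1). Component 3 was nearly as large (23.4%) and set bdt1 replicate 1 (37.6) apart from bdt1 replicate 2 (-37.2). Libraries thus differed within both genotypes. Results that 1 Col-0 library decided are given below with and without it, and fits without each bdt1 library are given for the members. Leaf and root markers fixed for the tissue check were present in every library: RBCS1A lay between 274500 and 311500 normalised reads and the root gene PYK10 between 42400 and 45710. The flower genes AP3 and PI were at 25.2 or less. The seed storage genes CRA1 and CRC were at 204 or less, and both bdt1 libraries lay above both Col-0 libraries, with sums of 261.1 and 268.2 in bdt1 and 119.6 and 46.7 in Col-0. CRA1 was called higher in bdt1 (log2 difference 1.59, limma adjusted p = 0.037), but not without Col-0 replicate 2 (1.1). A pseudocount of 0.1 (limma adjusted p = 0.061) and limma without its mean-variance trend (0.33) also lost the call. The 3 leaf markers summed to 599800 and 608800 in bdt1 and to 696900 and 700100 in Col-0. Of these, CAB1 was called lower in bdt1 (-0.46, limma adjusted p = 0.03), but not with quantile normalisation (-0.34). Its call was also lost with a pseudocount of 8 (limma adjusted p = 0.051) and without the trend (0.28). With no filter on low counts it missed the threshold too (0.05 after rounding). AT4G11560, the gene that background knowledge ties to the name BDT1, was at 313 and 324 normalised reads in bdt1 and at 1135 and 1117 in Col-0, which is a fall of 3.53-fold in bdt1 (log2 difference -1.82, SE 0.08, limma adjusted p = 3.9e-05).

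None of the 9 members that could be tested passed the test between genotypes, but the ERF and ZAT members shared a pattern across the libraries. Values are read counts normalised by the authors to a common library size, and differences are log2(normalised count + 1) in bdt1 minus that in Col-0, tested with limma over 23256 genes with a mean of at least 1. At an adjusted p threshold of 0.05, limma called 0 of 9 members, against 2.06% of all tested genes (280 or 1.2% higher and 199 or 0.856% lower). At an unadjusted limma p under 0.05 there were 3 of 9 members, ERF13, ERF104 and ZAT10, against 3807 of all 23256 tested genes. The edgeR quasi-likelihood test and DESeq2 on the recovered reads also called 0 members, where edgeR called 2.57% of tested genes (1.45% higher and 1.12% lower), although DESeq2 gave CBF1 no adjusted p. The log2 difference was negative for 7 members and positive for 2, with a median of -0.59 over the 9 members and 0.0034 over all tested genes. One of these signs turned with the scaling, that of CBF1 (-0.06 with quantile normalisation). ERF104 and ZAT10 were the 2 members in which both bdt1 libraries lay below both Col-0 libraries, an order found in 23.7% of tested genes. CBF3 was the 1 member with both bdt1 libraries above, an order found in 25.2%. With 2 libraries against 2, an exact permutation test of 1 gene cannot give a two-sided p below 0.333. In whole seedlings, fewer cells of a type and less RNA per cell cannot be told apart.

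**Figure D1:**
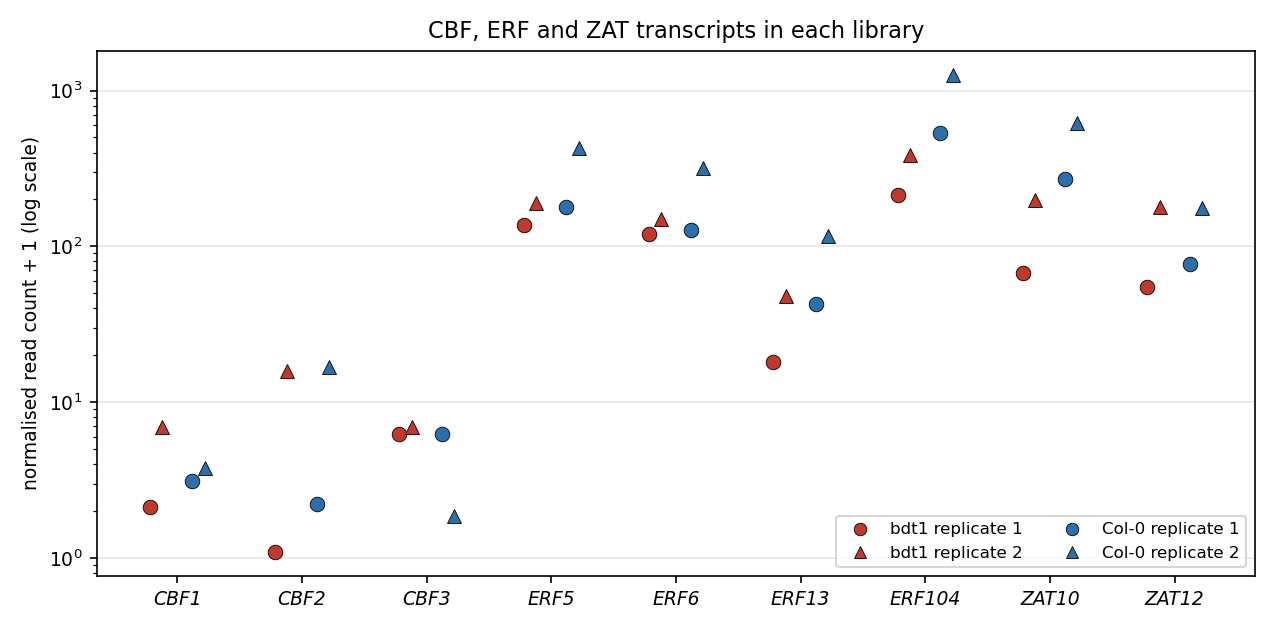
Normalised read counts of the 9 members with reads on a log axis of normalised count + 1, with 1 point per library (circles for replicate 1, triangles for replicate 2) and the bdt1 libraries to the left of the Col-0 libraries for each gene. ERF104 and ZAT10 have both bdt1 points below both Col-0 points, and the 3 CBF genes sit near the bottom of the axis. ERF105, at 0 in all 4 libraries, is not drawn.

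The CBF genes stand first in the pathway from cold to cold-regulated genes, and all 3 were near the limit of detection. CBF1 had 1.11 and 5.90 normalised reads in bdt1 and 2.13 and 2.76 in Col-0. CBF2 had 0.0933 and 14.8 in bdt1 and 1.2 and 15.9 in Col-0. CBF3, also called DREB1A, had 5.28 and 5.88 in bdt1 and 5.22 and 0.843 in Col-0. The values of CBF1 and CBF2 overlapped between genotypes, and CBF2 was high in replicate 2 and close to 0 in replicate 1 of both. For CBF3 the separation rested on the normalisation, since the bdt1 libraries held 5 and 6 recovered reads and Col-0 replicate 1 also held 5. Summed over each genotype, CBF1 had 7 recovered reads in bdt1 (exact Poisson 95% interval 2.81 to 14.4) and 5 in Col-0 (1.62 to 11.7). CBF2 had 15 in bdt1 (8.40 to 24.7) and 18 in Col-0 (10.7 to 28.5), and CBF3 had 11 in bdt1 (5.49 to 19.7) and 6 in Col-0 (2.2 to 13.1). These intervals cover counting error only, and for each gene they overlapped between genotypes. The fitted log2 difference was 0.15 for CBF1 (SE 0.80, limma adjusted p = 0.95), -0.55 for CBF2 (SE 1.32, adjusted p = 0.87) and 0.96 for CBF3 (SE 0.75, adjusted p = 0.57). Their 95% intervals ran from -1.67 to 1.97, from -3.57 to 2.46 and from -0.75 to 2.66, so differences of several fold in either direction were not detectable for CBF1 and CBF2 in these libraries.

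The 3 CBF genes lie in tandem on the minus strand of chromosome 4 (TAIR10.1), each with a single exon: CBF2 from 13015250 to 13016235, CBF3 from 13018010 to 13019400 and CBF1 from 13021780 to 13022996. The gaps are 1774 bases between CBF2 and CBF3 and 2379 bases between CBF3 and CBF1. Their coding sequences are 86.3% identical between CBF1 and CBF2, 84.9% between CBF1 and CBF3 and 86.7% between CBF2 and CBF3. The longest run of bases shared by any pair is 68 bases (CBF1 and CBF2), shorter than the reads of 150 bases. How reads that match several copies were counted is not given in the sources used here, so the split of the few reads among the 3 genes is uncertain. The longest run present in all 3 coding sequences, 30 bases near the start codon, is shown because it is the stretch on which they cannot be separated; it starts at coding base 19 and is read from RefSeq TAIR10.1.

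shared by CBF1, CBF2 and CBF3: ttttctgaaatgtttggctccgattacgag

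The promoter of CBF2 is shown because CBF2 was the CBF gene with the widest gap between libraries. It is the 300 bases before the annotated start, chr4:13016236-13016535 on the minus strand, read 5′ to 3′ from RefSeq TAIR10.1. Capitals mark CGCGTT, known as the rapid stress response element and recognised by calmodulin-binding CAMTA factors, which began 74 bases upstream, and 2 copies of the W box core TTGAC, read from the other strand as GTCAA, which WRKY factors recognise.

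CBF2: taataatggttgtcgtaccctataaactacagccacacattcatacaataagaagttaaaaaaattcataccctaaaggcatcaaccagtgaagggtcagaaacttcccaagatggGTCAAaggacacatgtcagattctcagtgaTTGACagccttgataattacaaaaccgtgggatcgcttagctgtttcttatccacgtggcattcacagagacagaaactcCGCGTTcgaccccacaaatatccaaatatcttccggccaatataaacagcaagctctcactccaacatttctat

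CGCGTT, on either strand, was found in 3.08% of 27443 promoters of the same length, and in 1 of the 10 members. The W box core was far commoner, at 50.4% of promoters and 6 of 10 members (CBF2, ERF5, ERF13, ERF105, ZAT10 and ZAT12). Matches of different motifs never overlapped in the 10 member windows, and a match is a description of letters and not of binding.

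Of 13 tested regulators of CBF, 1 was called, where 0.856% of all tested genes were called lower, and it fell: SCRM2, the close relative of the CBF activator ICE1, was at 1445 and 1399 in bdt1 and 1805 and 1747 in Col-0 (log2 difference -0.32, SE 0.06, limma adjusted p = 0.035). ICE1 itself was at 1730 and 1643 in bdt1 and 1890 and 1863 in Col-0 (-0.15, SE 0.06, adjusted p = 0.24). The median over the 13 regulators was -0.07. SCRM2 missed the threshold with a pseudocount of 0.1 (adjusted p = 0.05 after rounding), with quantile normalisation (0.053) and without Col-0 replicate 1 (0.065).

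Of 10 tested targets of CBF, 1 rose and 2 fell, where 1.2% of all tested genes were called higher and 0.856% lower. KIN1, a small cold- and dehydration-induced protein, rose to 422 and 559 in bdt1, against 205 and 234 in Col-0 (log2 difference 1.14, SE 0.15, limma adjusted p = 0.0076). COR15A, a chloroplast protein that protects membranes in the cold, fell to 797 and 826 in bdt1, against 1291 and 1860 in Col-0 (-0.93, SE 0.14, adjusted p = 0.017). COR413IM1, a protein of the chloroplast inner envelope, fell to 636 and 634 in bdt1, against 961 and 949 in Col-0 (-0.59, SE 0.07, adjusted p = 0.0054). The 3 called targets thus differed in direction, and the median over the 10 was 0.03. COR15B of the same list went the other way from COR15A, at 823 and 914 in bdt1 and 470 and 702 in Col-0. Its log2 difference of 0.59 did not pass in limma (adjusted p = 0.12) but did in DESeq2 (adjusted p = 0.037). KIN2 differed by 0.11 and did not pass. The 3 most abundant, COR47, COR413PM1 and ERD10, had log2 differences of -0.0030, 0.06 and -0.18 and did not pass. Of 4 tested DREB relatives, DREB2A, which activates drought and heat genes, was called and rose to 197 and 177 in bdt1, against 84.6 and 85.3 in Col-0 (1.13, SE 0.16, adjusted p = 0.011). DREB2B and DREB2C differed by -0.19 and 0.73 and did not pass.

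ERF5 and ERF6 are closely related ERF proteins that act in defence and in the growth response to drought, and their values overlapped between genotypes. ERF5 had 135 and 190 normalised reads in bdt1 and 178 and 425 in Col-0, or 163 ± 38.8 and 301 ± 175 (SD, n = 2 each). ERF6 had 119 and 149 in bdt1 and 127 and 318 in Col-0, or 134 ± 21.0 and 223 ± 135 (SD, n = 2 each). In both genes Col-0 replicate 2 stood well above the other 3 libraries, which lay close together. The log2 difference was -0.77 for ERF5 (SE 0.35, 95% interval -1.57 to 0.02, limma adjusted p = 0.32). For ERF6 it was -0.59 (SE 0.36, 95% interval -1.41 to 0.22, adjusted p = 0.46). Without Col-0 replicate 2 the difference was -0.15 for ERF5 and 0.07 for ERF6, so the differences of these genes rested on that library. Without Col-0 replicate 1 it was -1.40 for ERF5 and -1.25 for ERF6. ERF5 lies at chr5:19179881-19181182 on the plus strand and ERF6 at chr4:9752824-9754161 on the minus strand. Their coding sequences are 69% identical, with a longest shared run of 29 bases.

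ERF13, an ERF of the group that binds the GCC box, had 17.2 and 47.1 normalised reads in bdt1 and 41.9 and 115 in Col-0, or 32.1 ± 21.2 and 78.4 ± 51.6 (SD, n = 2 each). The higher bdt1 library stood above the lower Col-0 library, so the groups overlapped. The log2 difference was -1.25 (SE 0.55, 95% interval -2.50 to -0.0073) at an unadjusted limma p of 0.049 and an adjusted p of 0.3. The limma difference was -0.54 without Col-0 replicate 2 and -1.97 without Col-0 replicate 1. With bdt1 replicate 1 left out it was -0.55, and with bdt1 replicate 2 left out it was -1.96. In edgeR the difference was -0.74 without bdt1 replicate 1 and -2.21 without bdt1 replicate 2. It was -1.81 without Col-0 replicate 1 and -0.36 without Col-0 replicate 2. The gene lies at chr2:18495215-18496327 on the plus strand.

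ERF104, a substrate of MPK6 released from it during the flagellin response, was the most abundant member per length in both genotypes. It had 213 and 385 normalised reads in bdt1 and 532 and 1266 in Col-0, or 299 ± 122 and 899 ± 519 (SD, n = 2 each). Both bdt1 libraries were below both Col-0 libraries, and within each genotype replicate 2 was the higher. The log2 difference was -1.52, which is 2.86-fold lower in bdt1 (SE 0.38, 95% interval -2.38 to -0.66). It did not pass after adjustment in limma (unadjusted p = 0.0034, adjusted p = 0.09), in edgeR's quasi-likelihood test (adjusted p = 0.058) or in DESeq2 (adjusted p = 0.43). Over 18 alternative settings the log2 difference of ERF104 ranged from -2.14 to -0.83. With all 4 libraries, only the fit with replicate number as a block put it past the threshold.

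The promoter of ERF104 is shown because ERF104 was 1 of the 2 members whose genotypes did not overlap. It spans chr5:24767733-24768032 on the minus strand (RefSeq TAIR10.1) and held none of the 5 motifs searched on both strands. These were the CRT/DRE core with the letters CCGAC, the GCC box core with the letters GCCGCC, the rapid stress response element CGCGTT, its CAMTA-bound variant CGCGTG and the W box core TTGAC. The stretch therefore has no capitals.

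ERF104: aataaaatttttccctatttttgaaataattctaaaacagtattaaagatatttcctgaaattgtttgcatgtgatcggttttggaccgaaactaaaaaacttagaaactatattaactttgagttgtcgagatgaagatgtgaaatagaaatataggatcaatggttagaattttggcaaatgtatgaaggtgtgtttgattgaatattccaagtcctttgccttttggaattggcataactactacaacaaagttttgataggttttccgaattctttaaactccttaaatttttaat

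Next to ERF104 on chromosome 5, 832 bases away, lies AT5G61590, which the gene note of the annotation places in the same ERF subfamily. AT5G61590 fell to 678 and 827 normalised reads in bdt1, against 1665 and 2229 in Col-0 (752 ± 106 and 1947 ± 399, SD, n = 2 each). Its log2 difference was -1.36 (SE 0.14, limma adjusted p = 0.0032), close to that of ERF104 in size but with a much smaller error, since its libraries of 1 genotype differed by only 1.22-fold in bdt1 and 1.34-fold in Col-0. ERF104 differed between libraries by 1.81-fold in bdt1 and 2.38-fold in Col-0. The call of AT5G61590 was lost in limma without the mean-variance trend (adjusted p = 0.22). ERF1A, 5041 bases from ERF6, had 160 and 197 in bdt1 and 240 and 663 in Col-0 (-1.16, SE 0.38, limma adjusted p = 0.18). It was at -0.43 without Col-0 replicate 2 and at -1.90 without Col-0 replicate 1. ERF2, 6924 bases from ERF5, had 120 and 168 in bdt1 and 253 and 532 in Col-0 (-1.36, SE 0.31, adjusted p = 0.067), and edgeR called it (adjusted p = 0.043). In limma, ERF2 was at -0.83 without Col-0 replicate 2 and at -1.90 without Col-0 replicate 1.

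There were 17 other tested ERF genes listed for groups VIII and IX, which included ERF1A and ERF2 but not the called gene AT5G61590. At an unadjusted limma p under 0.05 there were 3 of the 17, ERF1A, ERF2 and ERF15, against 3807 of 23256 tested genes. Of the 17, limma and DESeq2 called 0 and edgeR called ERF2, and the median log2 difference was -0.06. The 3 most abundant were the repressors ERF3, ERF7 and ERF4, with log2 differences of -0.06, -0.13 and -0.27 that did not pass. Among 16 genes of ethylene and MAP kinase signalling the median was 0.00062. MKK9, a MAP kinase kinase that acts with MPK3 and MPK6, was the 1 gene called of the 16, where 0.856% of all tested genes were called lower. MKK9 fell to 243 and 328 in bdt1, against 532 and 889 in Col-0 (-1.28, SE 0.23, limma adjusted p = 0.03). Its call was lost without Col-0 replicate 2 (-0.91, adjusted p = 0.074), in DESeq2 (0.063) and with a pseudocount of 0.1 (0.053). The signalling protein EIN2, the transcription factor EIN3 and the F-box protein EBF1, the most abundant of the 16, had log2 differences of 0.04, -0.04 and 0.07 and did not pass.

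ERF105, a relative of ERF104 that acts in freezing tolerance, was listed at 0 in all 4 libraries. Its coding sequence is 59.3% identical to that of ERF104, with a longest shared run of 12 bases. ERF105 lies at chr5:20800473-20801437 on the minus strand, and all 965 bases of its single exon lie within the noncoding end of the last exon of AT5G51180, which is transcribed from the plus strand. AT5G51180 had 582 and 649 normalised reads in bdt1 and 647 and 615 in Col-0. Such a position went with a listed 0 in general: of 338 protein-coding genes lying wholly within exons of the opposite strand alone, 329 (97.3%) were at 0 in all 4 libraries. Among 19818 protein-coding genes with no such overlap, 3069 (15.5%) were at 0. Whether the counting used strand is not given in the sources used here, so reads of ERF105 and AT5G51180 cannot be told apart, and the 0 of ERF105 sets no upper limit on its transcript. The other members had no exon overlap, apart from CBF3 with 2.08% of its exon.

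**Figure D2:**
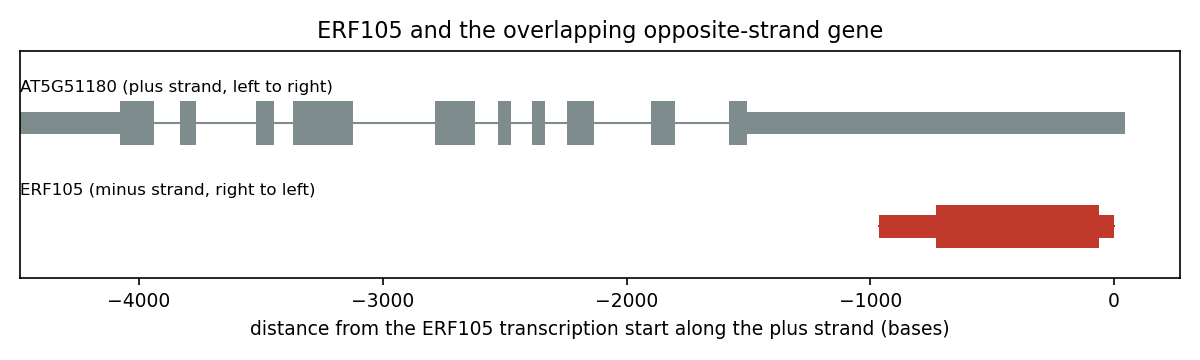
Map of ERF105 and AT5G51180, with distance in bases from the annotated start of ERF105 on the x axis, thick boxes for coding exons and thin boxes for noncoding exon parts. The whole exon of ERF105 (965 bases) sits inside the last exon of AT5G51180 on the other strand.

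**Figure D3:**
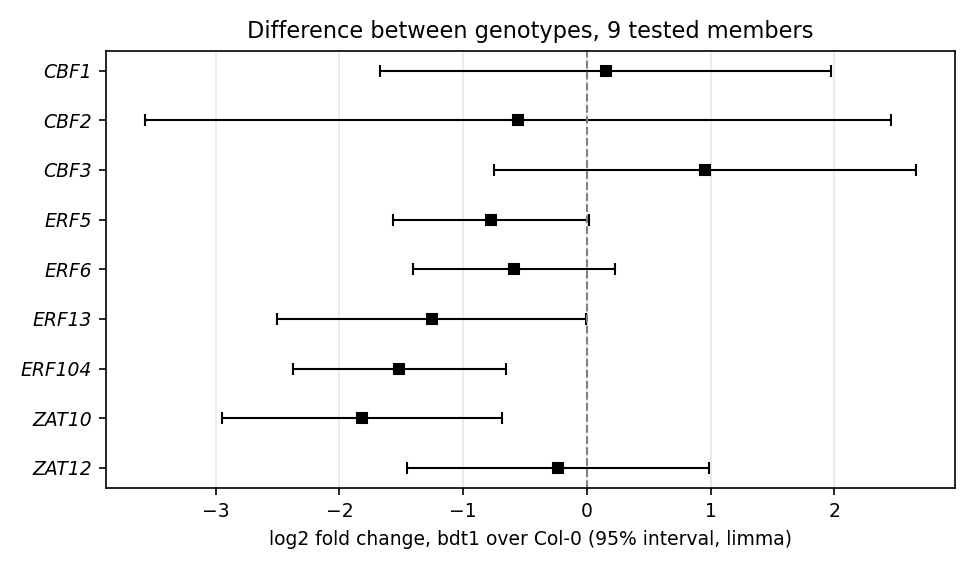
Log2 difference, bdt1 over Col-0, for the 9 members tested, with bars for the 95% interval from limma. The intervals of ERF104, ZAT10 and, narrowly, ERF13 lie below 0, the other 6 include 0, and CBF2 has the widest.

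ZAT10, also called STZ, a repressor in salt and oxidative stress, had the largest difference of the members. It had 66.2 and 198 normalised reads in bdt1 and 268 and 619 in Col-0, or 132 ± 93.3 and 443 ± 248 (SD, n = 2 each). Both bdt1 libraries were below both Col-0 libraries, and bdt1 replicate 1 was the lowest by far. The log2 difference was -1.82, which is 3.53-fold lower in bdt1 (SE 0.49, 95% interval -2.95 to -0.69). It did not pass after adjustment in limma (unadjusted p = 0.0057, adjusted p = 0.12), in edgeR's quasi-likelihood test (adjusted p = 0.084) or in DESeq2 (adjusted p = 0.61). The log2 difference of ZAT10 ranged from -2.76 to -1.01 over 18 alternatives. With all 4 libraries, only the fit with replicate number as a block put it past the threshold.

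ZAT12, also called RHL41, a regulator of the response to reactive oxygen and cold, had 53.5 and 179 normalised reads in bdt1 and 75.8 and 175 in Col-0. The genotypes overlapped nearly in full, at 116 ± 88.4 in bdt1 and 125 ± 69.9 in Col-0 (SD, n = 2 each), while the libraries of 1 genotype differed by 3.34-fold in bdt1 and 2.30-fold in Col-0. The log2 difference was -0.23 (SE 0.53, 95% interval -1.45 to 0.99, limma adjusted p = 0.87), and its sign turned without bdt1 replicate 1 (0.63) and without Col-0 replicate 2 (0.37).

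The promoters of ZAT10 and ZAT12 are shown together because both genes had wide gaps between libraries and only ZAT10 had genotypes that did not overlap. They span chr1:9649324-9649623 on the minus strand and chr5:24102514-24102813 on the plus strand (RefSeq TAIR10.1, 5′ to 3′). Capitals mark, in ZAT10, the W box core, the GCC box core and the CRT/DRE core, in that order, and in ZAT12 the CAMTA-type CGCGTG and 2 W box cores that adjoin on opposite strands.

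ZAT10: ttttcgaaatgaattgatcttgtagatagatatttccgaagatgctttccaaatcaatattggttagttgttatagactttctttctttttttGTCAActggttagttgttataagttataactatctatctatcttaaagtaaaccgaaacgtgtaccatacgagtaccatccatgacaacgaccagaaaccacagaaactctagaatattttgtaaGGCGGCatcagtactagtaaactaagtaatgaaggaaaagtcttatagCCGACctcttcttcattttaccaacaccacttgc
ZAT12: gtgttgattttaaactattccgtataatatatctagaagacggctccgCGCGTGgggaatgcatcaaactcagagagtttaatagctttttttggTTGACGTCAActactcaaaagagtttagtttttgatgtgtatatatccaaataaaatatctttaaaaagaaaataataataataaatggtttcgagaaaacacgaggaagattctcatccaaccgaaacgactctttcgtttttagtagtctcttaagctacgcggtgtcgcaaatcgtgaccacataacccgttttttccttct

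The CRT/DRE core was found in 13.9% of the 27443 promoters and in 3 of 10 members (ERF5, ERF6 and ZAT10), and began 34 bases upstream of the ZAT10 start. The GCC box core was found in 2.26% of promoters and in ZAT10 alone of the members. CGCGTG was found in 2.93% of promoters and in ZAT12 alone of the members. No match in CBF1, CBF3 or ERF104 says only that these letters are not in that window.

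ZAT10 lies at chr1:9648021-9649323 on the minus strand and ZAT12 at chr5:24102814-24103794 on the plus strand. Of 9 other genes of the same zinc finger group (C1-2i), limma and edgeR called 0, with 0 of 9 by DESeq2, and the median log2 difference was 0.18. At an unadjusted limma p under 0.05 there was 1 of the 9, ZAT6, against 3807 of 23256 tested genes. The 3 most abundant, ZAT5, ZAT6 and AZF2, had log2 differences of -0.21, -0.76 and -0.43 and did not pass.

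**Figure D4:**
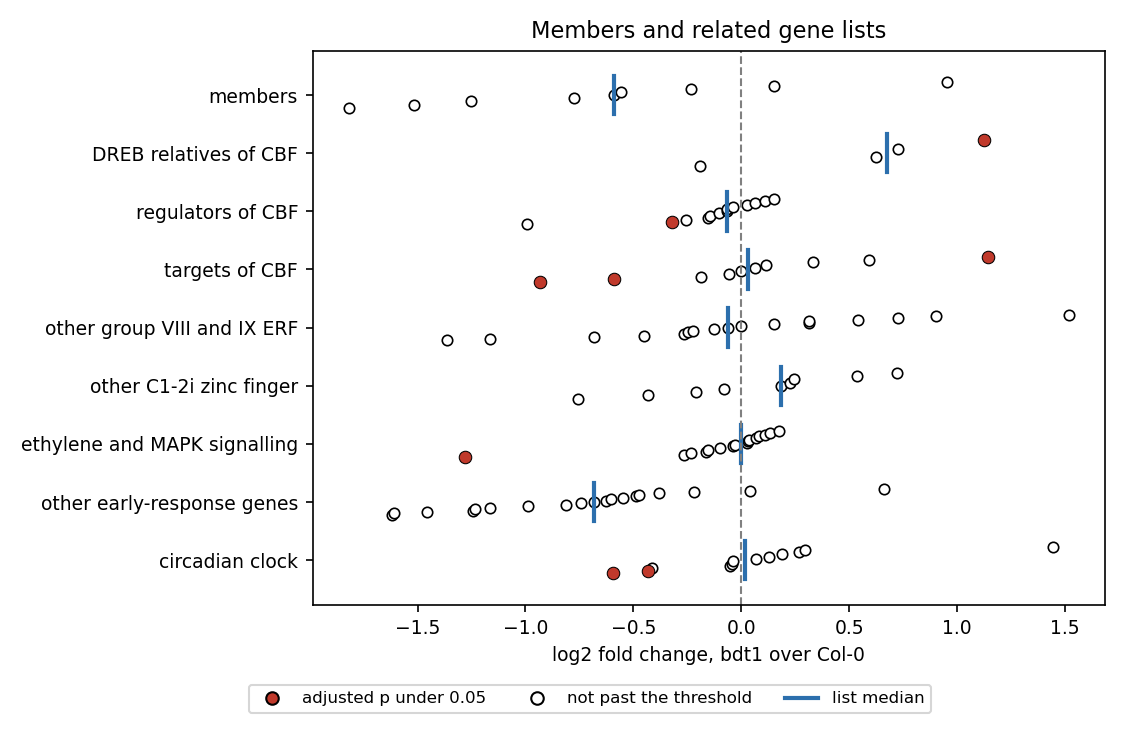
Log2 differences, bdt1 over Col-0, of the 9 members tested and of the tested genes of 8 related lists, with 1 point per gene, filled where limma called it and open where it did not, and a bar at each list's median. The members and the other early-response genes have medians of -0.59 and -0.68, the DREB relatives have 0.68, and the other 6 lists lie between -0.07 and 0.18.

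Levels of different genes were compared per kilobase of exon. In bdt1 the order of mean normalised reads per kilobase was ERF104 (215), ERF5 (125), ZAT12 (118), ZAT10 (101), ERF6 (100.2), ERF13 (28.9), CBF2 (7.53), CBF3 (4.01) and CBF1 (2.88). In Col-0 it was ERF104 (647), ZAT10 (340), ERF5 (232), ERF6 (166), ZAT12 (128), ERF13 (70.4), CBF2 (8.67), CBF3 (2.18) and CBF1 (2.01). ERF105 was at 0 in both. From ERF104 to ERF13, every pair of neighbours in the Col-0 order overlapped in the ranges of their 2 libraries. ERF13 and CBF2 did not overlap in either genotype, narrowly in bdt1: ERF13 ran from 15.4 to 42.3 per kilobase in bdt1 and from 37.6 to 103 in Col-0, and CBF2 from 0.0947 to 15.0 in bdt1 and from 1.22 to 16.1 in Col-0. In bdt1 the neighbours ERF104 and ERF5 (103.8 to 146) also kept apart, narrowly, as ERF104 ran from 153 to 277, and so did ERF6 (89.1 to 111) and ERF13. The 3 CBF genes overlapped with one another in both genotypes. ZAT10 was the second member in Col-0 and the fourth in bdt1, and ZAT12 the fifth in Col-0 and the third in bdt1. In bdt1, however, ZAT12 ran from 54.6 to 182 and ZAT10 from 50.8 to 152, so both spanned ERF5 and ERF6. The range of ZAT12 also reached into that of ERF104.

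What the ERF and ZAT members shared most was a gap between libraries of 1 genotype. Replicate 2 was above replicate 1 in 9 of 9 tested members in bdt1 and in 8 of 9 in Col-0, with CBF3 the exception. Among all 23256 tested genes it was above in 11932 in bdt1 and in 11584 in Col-0. Over the 9 members, which include the CBF genes with their few reads, the median gap was 1.41 on the log2 scale in bdt1 and 1.25 in Col-0. In bdt1 the gap of ERF5 was 0.49 and that of ERF6 was 0.32, both below that median. For the 6 members with a mean of at least 50 (ERF5, ERF6, ERF13, ERF104, ZAT10 and ZAT12) replicate 2 exceeded replicate 1 by 1.25-fold to 3.34-fold in bdt1 and by 2.30-fold to 2.74-fold in Col-0. Among all 17671 genes with a mean of at least 50, 0.164% reached 2-fold in bdt1 and 0.436% in Col-0, and 0.0622% (11 genes) reached it in both genotypes. Of those 6 members, 3 reached 2-fold in bdt1 (ERF13, ZAT10 and ZAT12) and 6 in Col-0, so 3 of the 11 genes were members. The summed counts of the 10 members were 610 and 1174 in bdt1 and 1231 and 2937 in Col-0, and bdt1 replicate 2 was nearly level with Col-0 replicate 1.

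**Figure D5:**
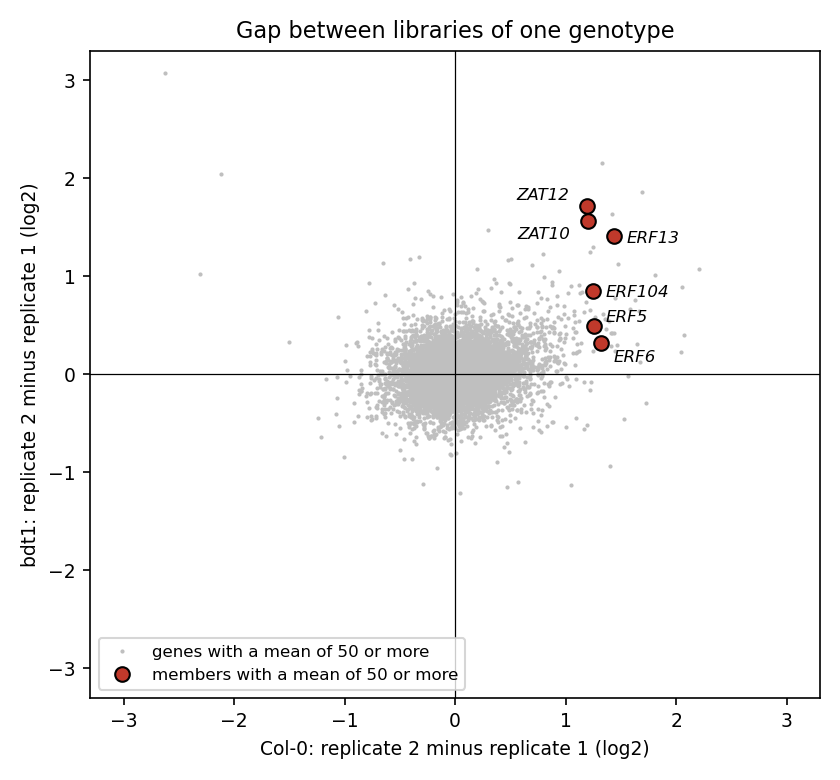
Log2 of replicate 2 over replicate 1, in bdt1 on the y axis and in Col-0 on the x axis, for 17666 genes with a mean of at least 50 in grey (5 genes lie beyond the axes) and for the 6 members past that mean in red. ERF5, ERF6, ERF13, ERF104, ZAT10 and ZAT12 all lie above 1 in Col-0 and above 0 in bdt1, at the edge of the grey cloud.

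Other genes of rapid response were looked at beside the members. In a list of 19 other early-response genes, limma and edgeR called 0 and DESeq2 called 1 (MYB44). At an unadjusted limma p under 0.05 there were 11 of the 19, against 3807 of 23256 tested genes. Replicate 2 was above replicate 1 in 17 of 19 genes in bdt1 and in 19 of 19 in Col-0, against 11932 and 11584 of 23256 tested genes. Their summed counts were 6986 and 8675 in bdt1 and 9416 and 18540 in Col-0, highest in the same library as the members. The median log2 difference was -0.68, and in 10 of the 19 genes both bdt1 libraries lay below both Col-0 libraries (23.7% of tested genes). The most abundant were the NADPH oxidase gene RBOHD (2207 and 2268 in bdt1, 2230 and 3046 in Col-0) and the zinc finger genes SZF2 (919 and 1271 in bdt1, 1512 and 2381 in Col-0) and SZF1 (500.1 and 847 in bdt1, 1138 and 3518 in Col-0). None of these 3 passed, at log2 differences of -0.22, -0.81 and -1.62. CML37 (18.9 and 11.7 in bdt1, 4.39 and 17.7 in Col-0) and SIB1 (136 and 169 in bdt1, 114 and 192 in Col-0) were the 2 genes with a positive log2 difference, at 0.66 and 0.04. The part of these library differences, of depth and of the leaf and seed marker levels in the genotype differences of the members was not tested.

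Clock genes, whose transcripts cycle over the day, differed less between libraries of 1 genotype in their sums, which TOC1 and ELF3 dominate. The 12 clock genes summed to 9999 and 10030 in bdt1 and 10060 and 10440 in Col-0, with a median gap of 0.03 in bdt1 and 0.05 in Col-0 on the log2 scale. Single genes ranged more widely, from -0.35 (PRR9) to 0.38 (GI) in bdt1 and from -2.05 (PRR9, at 3.13 and 0 normalised reads) to 0.26 (RVE8) in Col-0. Differences in sampling time were not tested. Between genotypes 2 of 12 were called, both lower, where 0.856% of all tested genes were called lower. PRR5, a repressor of the clock, fell to 314 and 341 in bdt1, against 453 and 541 in Col-0 (log2 difference -0.60, SE 0.11, limma adjusted p = 0.037). CHE, a TCP factor that binds the CCA1 promoter, fell to 524 and 508 in bdt1, against 688 and 706 in Col-0 (-0.43, SE 0.08, limma adjusted p = 0.032). TOC1, ELF3 and LUX, the most abundant, differed by -0.04, -0.05 and -0.04 and did not pass. The calls of PRR5 (-0.47) and CHE (-0.41) were lost without Col-0 replicate 2, as was that of CHE without Col-0 replicate 1 (-0.45) and in DESeq2 (adjusted p = 0.059), and that of PRR5 with a pseudocount of 0.1 (adjusted p = 0.056).

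The 8 genes outside the members whose centred log2 profile over the 4 libraries lay nearest to the mean profile of the 10 members were WRKY46, NAC036, AT1G32928, NUDT21, FRK1, GATL10, AT1G72910 and LDOX. Their Euclidean distances ran from 0.239 for WRKY46 to 0.417 for LDOX, where the median over 17665 genes was 1.21. WRKY46, a WRKY factor, had 31.9 and 60.8 in bdt1 and 52.2 and 97.0 in Col-0. FRK1, a receptor kinase gene induced by flagellin, had 35.1 and 67.7 in bdt1 and 67.9 and 95.8 in Col-0. None of the 8 was called by limma or edgeR, with 1 (AT1G72910, unadjusted p = 0.025) at an unadjusted limma p under 0.05. Among the members ZAT12 (0.532) and ERF5 (0.60) lay nearest to their own mean, and CBF2 (2.36) and CBF3 (2.54) farthest. That mean took in ERF105, at 0 in all 4 libraries (distance 1.21), and the CBF genes with their few reads. With 4 libraries in 2 genotypes, many genes share such a profile, and the distances are a description.

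With all 4 libraries the edgeR test called neither ZAT10 (adjusted p = 0.084) nor ERF104 (adjusted p = 0.058). The differences of the members moved with the library left out. Without bdt1 replicate 1 or bdt1 replicate 2 limma called 0 members and 0 genes, and all its calls given above went with them; 1558 and 1599 genes then had an unadjusted p under 0.05. Without Col-0 replicate 1 the limma differences were -1.40 for ERF5, -1.25 for ERF6 and -2.14 for ERF104. Without Col-0 replicate 2 they were -0.15, 0.07 and -0.89. In edgeR, ZAT10 and ERF104 were lower in bdt1 whichever library was left out. Their edgeR log2 differences were -1.17 and -1.23 when bdt1 replicate 1 was dropped, -2.76 and -2.09 for bdt1 replicate 2, -2.21 and -2.07 for Col-0 replicate 1, and -1.01 and -0.83 for Col-0 replicate 2. Over the limma and edgeR fits with 1 library left out, ERF5 ranged from -1.40 to -0.12 and ERF6 from -1.25 to 0.09. ERF13 ranged from -2.21 to -0.36 and ZAT12 from -1.25 to 0.63. In these fits 1 genotype has a single library, which is assumed to vary like the other genotype.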

How the data were processed

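Paired-end reads of 150 bases were obtained from 2 bdt1 and 2 Col-0 libraries. Per the submitters' processing notes, HISAT2 2.2.0 and edgeR were used with TAIR10. The sources used here do not name a read counter, an annotation version or whether counting used strand. The deposited table holds, for each of 32548 genes and each library, a signal that the authors normalised: counts adjusted to 1 common library size, in the form of edgeR's pseudo-counts. This form was read from the values. Inverting the adjustment with a dispersion of 0.00544 gave whole reads for 100% of values (tolerance 0.001 reads), and the inversion was tested on simulated data.

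Since the deposited signal is not a raw count, the planned count test was replaced by limma 3.58.1 in R 4.3.3, fitted with a mean-variance trend to log2(normalised count + 1) for genes with a mean of at least 1, with Benjamini-Hochberg adjustment over 23256 genes and a threshold of 0.05. This scale understates differences of genes with low counts. Alternatives were other pseudocounts, filters and scalings, limma without the trend, a replicate block, edgeR 4.0.16 and DESeq2 1.42.0 on the recovered reads, and each library left out in turn. Leaving libraries out of the edgeR test, and the alternatives for CRA1, CAB1 and ERF2, were added after seeing the data. P-values set the genotype difference against the spread between these libraries, which limma drew towards a trend over all tested genes.

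The members and gene lists were chosen with earlier results of these data known. Named are the members, called genes and the 3 most abundant genes of each list, neighbours of the same family, the 8 genes of nearest profile (mean of at least 50) and AT4G11560. Genes named at an unadjusted p were otherwise chosen after their values were seen, as were ERF2, MYB44, CML37, SIB1, COR15B, KIN2 and AT5G51180. Positions, promoters (300 bases) and coding sequences came from RefSeq TAIR10.1. Sequences, summaries and plots were made in Python 3.11.15 with pandas 2.3.3, matplotlib 3.10.9, scipy 1.17.1 and numpy 2.4.6.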

Additional observations from a re-analysis of the deposited data

How the results depend on the processing

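With pseudocounts of 0.1 and 8, no filter, a filter at a mean of 10, TMM and quantile scaling, edgeR and DESeq2, members called stayed at 0, and the genes called lay between 194 and 338 higher and between 123 and 260 lower (280 and 199 as reported). The 123 lower came with a pseudocount of 0.1, which also left 3 list genes lower instead of 6 (2 higher). Without limma's trend, 42 genes were higher and 6 lower, with 0 list genes called in either direction and 0 members. Leaving out 1 library, over limma and edgeR, gave 0 to 1225 genes higher, 0 to 1273 lower, 0 to 5 members lower, 0 to 6 list genes higher and 0 to 31 list genes lower, and the cause was not tested beyond the smaller sample.

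Same-numbered libraries were treated as unpaired. The correlation across genes of the replicate 2 minus replicate 1 differences was -0.0116 between genotypes, and 0.0471 among genes with a mean of at least 50. Whether a smaller set of genes shared an effect of replicate number was not tested, and a correlation over so many genes cannot decide it. With a replicate block, 901 genes were higher and 917 lower, with 5 list genes higher, 23 lower and 4 members lower (ERF5, ERF13, ERF104 and ZAT10).

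Quantile scaling turned the log2 difference of CBF1 to -0.059, EIN3 to 0.0019, COR47 to 0.024 and LUX to 0.0040. Leaving out 1 library turned 13 genes, whose log2 differences ranged from -1.13 to 1.21 for CBF1, -6.13 to 2.69 for CBF2, -1.25 to 0.090 for ERF6, -1.25 to 0.63 for ZAT12, -0.081 to 0.00054 for EIN3, -0.020 to 0.014 for COR47, -0.15 to 0.077 for LUX, -0.15 to 0.024 for ERF3, -0.56 to 0.022 for ERF4, -0.92 to 0.14 for NAC036, -0.92 to 0.12 for GATL10, -0.45 to 0.0046 for RBOHD and -0.13 to 0.032 for ELF3. The CBF genes had at most 18 reads per genotype, and for CBF2 these fell almost wholly in replicate 2 of each.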

Other observations

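Of the 11 genes with a mean of at least 50 whose replicate 2 exceeded replicate 1 by 2-fold or more in both genotypes, 8 were not members and were chosen here after their values were seen. HSPRO2, named for a sugar beet nematode resistance gene, had 456 and 995 normalised reads in bdt1 and 1355 and 3758 in Col-0. AT4G27280, a calcium-binding EF-hand protein, had 143 and 355 in bdt1 and 475 and 1128 in Col-0. DIC2, a mitochondrial dicarboxylate carrier, had 64.3 and 236 in bdt1 and 186 and 603 in Col-0. CAF1a, a deadenylase subunit, had 105.5 and 329.5 in bdt1 and 256 and 686 in Col-0. The others were AT1G07135, AT1G72920, WRKY40 and PR1. In HSPRO2, AT4G27280, AT1G07135 and AT1G72920 both bdt1 libraries lay below both Col-0 libraries, as they did in 23.7% of tested genes. PR1, a marker of salicylic acid signalling, was the 1 gene of the 11 with a higher mean in bdt1, at 45.7 and 93.2 in bdt1 and 15.2 and 55.8 in Col-0. Of the 11, limma, edgeR and DESeq2 called 0, with 8 at an unadjusted limma p under 0.05, against 3807 of 23256 tested genes.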
